A study of Mus musculus with 9 samples.

Results

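The genes described are those of the mouse major histocompatibility complex (MHC) and of antigen presentation, in liver RNA sequenced after acetaminophen (APAP) injury. They were taken by name from the count table, as every symbol beginning with H2- plus B2m, Tap1, Tap2, Tapbp, Cd74, Ciita, Nlrc5, Erap1, Cd80, Cd86, Cd40 and Cd1d1. Of the table's 28956 genes, 48 matched, and the 38 with at least 10 raw counts in at least 3 libraries are described. By role, these are 18 of 26 class I heavy chain genes, 6 of 6 genes of class I loading and control, and 7 of 9 class II chains. The others are Cd74 and Ciita, the co-stimulation genes Cd80, Cd86 and Cd40, the lipid-presenting Cd1d1, and H2-Ke6. The last lies in the MHC by name but encodes a hydroxysteroid dehydrogenase, not an MHC chain. H2-T-ps and H2-M6-ps are pseudogenes by name, and are counted among the class I heavy chain genes throughout. The 10 genes below the count minimum were H2-Q3, H2-T3, H2-M1, H2-M2, H2-M5, H2-M9, H2-M10.2, H2-M10.6, H2-Eb2 and H2-Oa. All 38 genes also entered the test across 17582 genes.

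C57BL6J mice, 8 weeks of age, received APAP intraperitoneally at 300 mg/kg, and liver RNA was sequenced at 24 h in 3 groups of 3 libraries. The APAP group received no cells. The APAP_MSC group received 500000 MSC intravenously 90 min after APAP, and the APAP_HDF group 500000 HDF by the same route and at the same time. The labels do not spell out MSC and HDF, which are commonly mesenchymal stromal cells and human dermal fibroblasts. Every group carries the APAP injury, and no uninjured liver was analysed here. The labels give hepatocytes as the cell type, yet the RNA came from pieces of whole liver. Marker genes of Kupffer cells, sinusoidal endothelium and leukocytes were detected in every library, so the values are read as whole liver. In such bulk RNA, fewer cells of a type and less RNA per cell cannot be told apart. The labels do not say that the libraries of a group came from separate animals, so the p-values speak only for the spread between these libraries.

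MHC class I molecules are made by nearly all nucleated cells. A heavy chain pairs with beta-2 microglobulin and carries peptides, cut by the proteasome and pumped into the endoplasmic reticulum, to the surface for CD8 T cells and natural killer cells. MHC class II molecules are made mainly by dendritic cells, macrophages and B cells, and present peptides from endocytosed material to CD4 T cells. In liver, Kupffer cells, dendritic cells and sinusoidal endothelium can carry class II, whereas hepatocytes carry class I and express little class II. Interferon gamma raises both classes, class I through NLRC5 and class II through CIITA.

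Upstream sequences of some of these genes are shown first, with matches to elements described for class I and class II promoters. Where NLRC5 and CIITA act was not tested. The sequences are from the RefSeq promoter table (GRCm38.p6), which has an entry for 23 of the 38 genes. The authors' build was GRCm39, so the positions below belong to the RefSeq table alone. In the class I windows, capitals mark the NF-kappaB site of enhancer A (GGGGATTCCCC) and the interferon response element (AGTTTCACTTCT), with letters as they stand upstream of H2-K1. Windows of H2-K1 (chr17:34000416-34000499, minus strand), H2-D1 (chr17:35262882-35262965, plus strand) and H2-Q10 (chr17:35469872-35469955, plus strand) are aligned on the second element, 5′ to 3′ towards the start site.
H2-K1: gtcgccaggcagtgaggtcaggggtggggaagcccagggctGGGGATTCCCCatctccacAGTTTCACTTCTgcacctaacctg
H2-D1: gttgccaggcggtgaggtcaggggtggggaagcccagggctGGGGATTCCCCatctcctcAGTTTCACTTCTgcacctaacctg
H2-Q10: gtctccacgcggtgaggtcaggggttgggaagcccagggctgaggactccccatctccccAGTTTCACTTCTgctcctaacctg
The H2-K1 and H2-D1 windows shared 81 of 84 positions (96.4%), and each shared 76 of 84 (90.5%) with H2-Q10. The windows were cut around the interferon response element, so its presence in all 3 was fixed in advance. The NF-kappaB site was in those of H2-K1 and H2-D1. Searched on both strands in the 250 bases upstream of the start site, the NF-kappaB letters were found in 0.0304% of 32851 promoters. Among the 23 entries they were found upstream of 3, namely H2-K1, H2-D1 and H2-Q6. The interferon letters were found in 0.0274% of promoters and upstream of 6 members, namely H2-K1, H2-D1, H2-Q4, H2-Q6, H2-Q7 and H2-Q10. H2-K1 holds both by construction, since its letters defined them. The shares over all promoters, here and for class II below, include the members' own entries. They stand for 10 promoters with the NF-kappaB letters and 9 with the interferon letters. Because the windows compared above are nearly alike, matches in genes related to H2-K1 are not independent of it. A match describes the letters only.

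In the class II windows, capitals mark the X box (AACNNATGATG, letters as upstream of H2-Eb1 with 2 bases left free), the cAMP response element (TGACGTCA), which overlapped no X box match, and the Y box (GATTGG). These elements are read by the RFX, CREB and NF-Y factors on which CIITA assembles. The windows are H2-Aa (chr17:34287857-34287922, minus strand), H2-Eb1 (chr17:34305753-34305822, plus strand), H2-DMb1 (chr17:34153074-34153144, plus strand) and H2-Ob (chr17:34238795-34238862, plus strand).
H2-Aa: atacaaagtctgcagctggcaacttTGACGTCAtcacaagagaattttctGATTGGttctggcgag
H2-Eb1: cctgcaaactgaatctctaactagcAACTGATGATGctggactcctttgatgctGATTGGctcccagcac
H2-DMb1: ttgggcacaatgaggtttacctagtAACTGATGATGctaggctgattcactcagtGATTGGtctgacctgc
H2-Ob: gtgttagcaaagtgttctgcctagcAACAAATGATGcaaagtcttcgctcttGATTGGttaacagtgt
The X box letters were found in 0.119% of promoters and upstream of 4 members, H2-Eb1, H2-DMb1, H2-DMb2 and H2-Ob. H2-Eb1 holds them by construction, since its letters defined them. The cAMP element was found in 1.55% of promoters and upstream of 1 member, H2-Aa, while the short Y box was found in 14.6% of promoters and upstream of 15 of the 23 members. The Y box was not confined to class II, and class I genes such as H2-D1, H2-T23 and B2m also held it. No class I heavy chain entry held the X box letters used here, and neither did the class II entries H2-Aa and H2-DMa. Other forms of the box were not searched, so these letters do not separate the classes.

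Library sizes lay between 53267231 and 63175573 counts. Levels are CPM, read counts scaled to a common library size with TMM factors. Where a gene had 0 counts, 3 counts set its upper limit, which was 0.0453 to 0.0567 CPM by library and covers counting error only. Near-identical class I genes can share reads, as can H2-DMb1 and H2-DMb2, and the strand setting of the counting is not given in the sources used here, so single members of these families are uncertain. Before any comparison, APAP library 3 has to be described, because it stood apart from the other 8 in these genes. It held the highest value of 25 of the 38 members, against 11% of all genes tested. Beside the mean of APAP libraries 1 and 2, the median fold over the 38 members was 1.70, against 1.01 over all genes. At least 2-fold higher were 16 of 38 members against 4.3% of genes, at least 3-fold 6 against 1.31%, and at least 4-fold 4 against 0.603%. The members' counts and medians in comparisons with the APAP group are therefore given with and without that library, as are the members and list genes singled out there. The library was picked for its high member values, so leaving it out lowers the APAP side of most members by design. The same holds for lists that were high in it. Values without it show how far a result rests on 1 library and are no separate evidence of a difference.

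**Figure D1:**
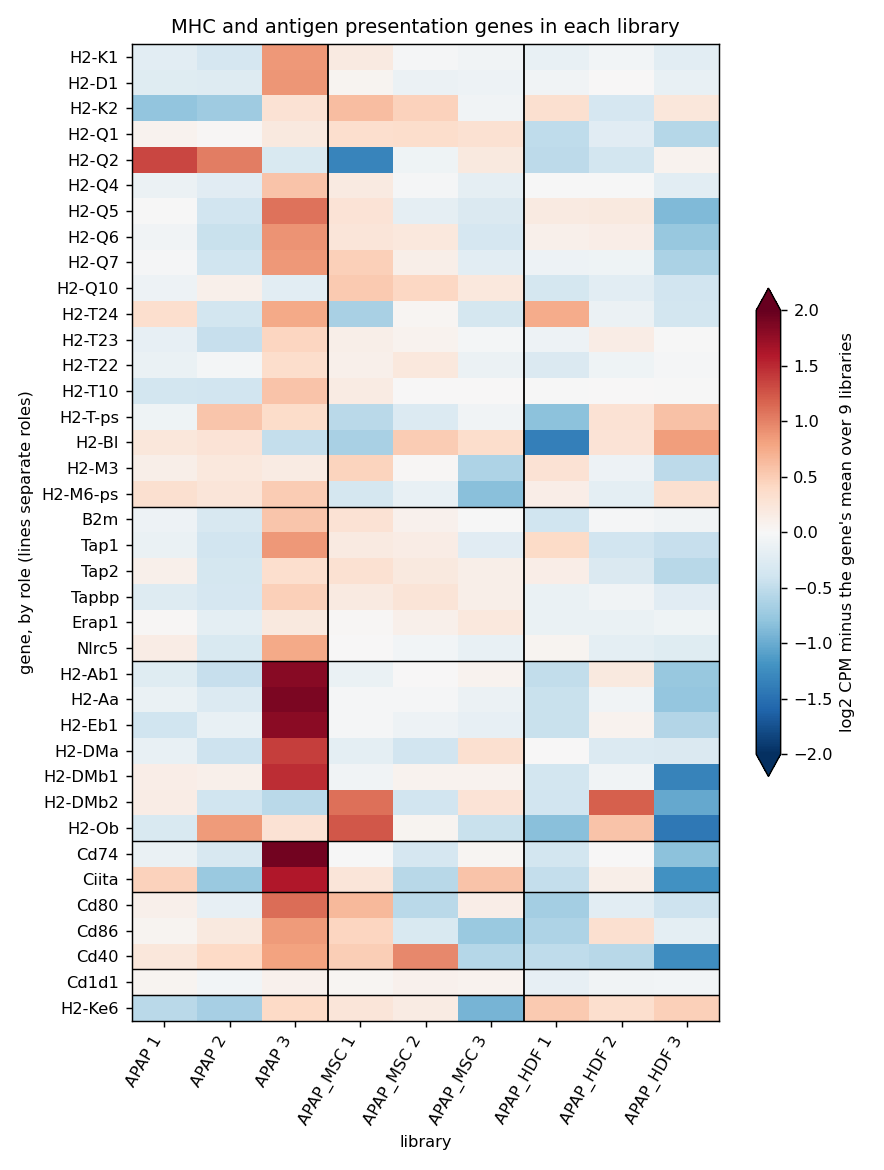
Levels of the 38 genes (one line each, grouped by role) in the 9 libraries, as log2 CPM minus the gene's mean over the 9 libraries. Red is above and blue below that mean. APAP library 3 is the reddest column, most of all for H2-Ab1, H2-Aa, H2-Eb1, Cd74 and Ciita, whereas H2-Q10 and H2-Q1 are red in APAP_MSC and blue in APAP_HDF.

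The 4 members at least 4-fold higher in APAP library 3 were H2-Ab1, H2-Aa, H2-Eb1 and Cd74, all of class II. H2-Ab1 and H2-Aa encode the beta and alpha chains of I-A, the class II molecule of C57BL6 mice. H2-Ab1 had 6.84, 5.86 and 28.6 CPM in APAP, 7.35, 8.18 and 8.53 CPM in APAP_MSC, and 5.74, 9.23 and 4.76 CPM in APAP_HDF. The third APAP library was 4.51-fold above the mean of the first and second, and the other 8 libraries lay together between 4.76 and 9.23 CPM. H2-Aa had 5.48, 4.98 and 22.2 CPM in APAP, 5.89, 5.91 and 5.52 CPM in APAP_MSC, and 4.39, 5.704 and 3.51 CPM in APAP_HDF. Again 1 library was high, 4.24-fold over its group partners, and the other 8 libraries lay between 3.51 and 5.91 CPM, where those of APAP_MSC were above APAP libraries 1 and 2. H2-Eb1, the I-E beta chain, whose alpha partner is not made in this strain, had 4.45, 5.301 and 20.7 CPM in APAP, 5.76, 5.496 and 5.23 CPM in APAP_MSC, and 4.31, 6.14 and 3.91 CPM in APAP_HDF. Its fold in APAP library 3 was 4.24.

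Cd74, the invariant chain that escorts class II to the endosome, followed the same course at a higher level. Its values were 16.6, 14.6 and 69.6 CPM in APAP, 18.2, 14.4 and 18.8 CPM in APAP_MSC, and 14.2, 18.4 and 10.3 CPM in APAP_HDF. APAP library 3 stood 4.46-fold over the mean of APAP libraries 1 and 2, and no other library passed 18.8 CPM. Ciita, the class II transactivator, was low throughout, with 0.992, 0.411 and 2.23 CPM in APAP, 0.849, 0.472 and 1.07 CPM in APAP_MSC, and 0.503, 0.7801 and 0.2898 CPM in APAP_HDF. It was also highest in APAP library 3, 3.18-fold over the mean of its group partners, but APAP libraries 1 and 2 themselves differed from each other by more than 2-fold. In APAP_HDF, H2-Ab1, H2-Aa, H2-Eb1 and Cd74 were each highest in library 2 and lowest in library 3.

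H2-DMa and H2-DMb1 encode the DM molecule, which exchanges class II peptides. H2-DMa had 1.24, 1.03 and 3.67 CPM in APAP, 1.200, 1.06 and 1.73 CPM in APAP_MSC, and 1.38, 1.14 and 1.12 CPM in APAP_HDF. H2-DMb1 had 1.46, 1.44 and 3.76 CPM in APAP, 1.27, 1.397 and 1.41 CPM in APAP_MSC, and 1.02, 1.27 and 0.507 CPM in APAP_HDF. Both were highest in APAP library 3, 3.23-fold and 2.59-fold over the other APAP libraries. H2-DMb2, a second DM beta gene, had 0.289, 0.187 and 0.166 CPM in APAP, 0.591, 0.189 and 0.317 CPM in APAP_MSC, and 0.189, 0.634 and 0.109 CPM in APAP_HDF. H2-Ob, the beta chain of the DM inhibitor DO, had 0.198, 0.485 and 0.317 CPM in APAP, 0.646, 0.264 and 0.176 CPM in APAP_MSC, and 0.126, 0.3900 and 0.0724 CPM in APAP_HDF. These 2 were the class II chains that were not highest in APAP library 3, and their groups overlapped in every comparison. H2-Ob came down to 0.0724 CPM, close to the limit that a count of 0 allows.

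The balance of the I-A and I-E chains was nearly the same in all 9 libraries although their level was not. H2-Ab1 made up 36.3% to 44.2% of the counts of H2-Ab1, H2-Aa and H2-Eb1, H2-Aa 27.1% to 32.7% and H2-Eb1 26.6% to 32.8%. APAP library 3, with 40.04%, 31.02% and 28.9%, lay inside each of these ranges. Cd74 had 177 to 250 counts per 100 of H2-Ab1, and 243 in APAP library 3.

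**Figure D2:**
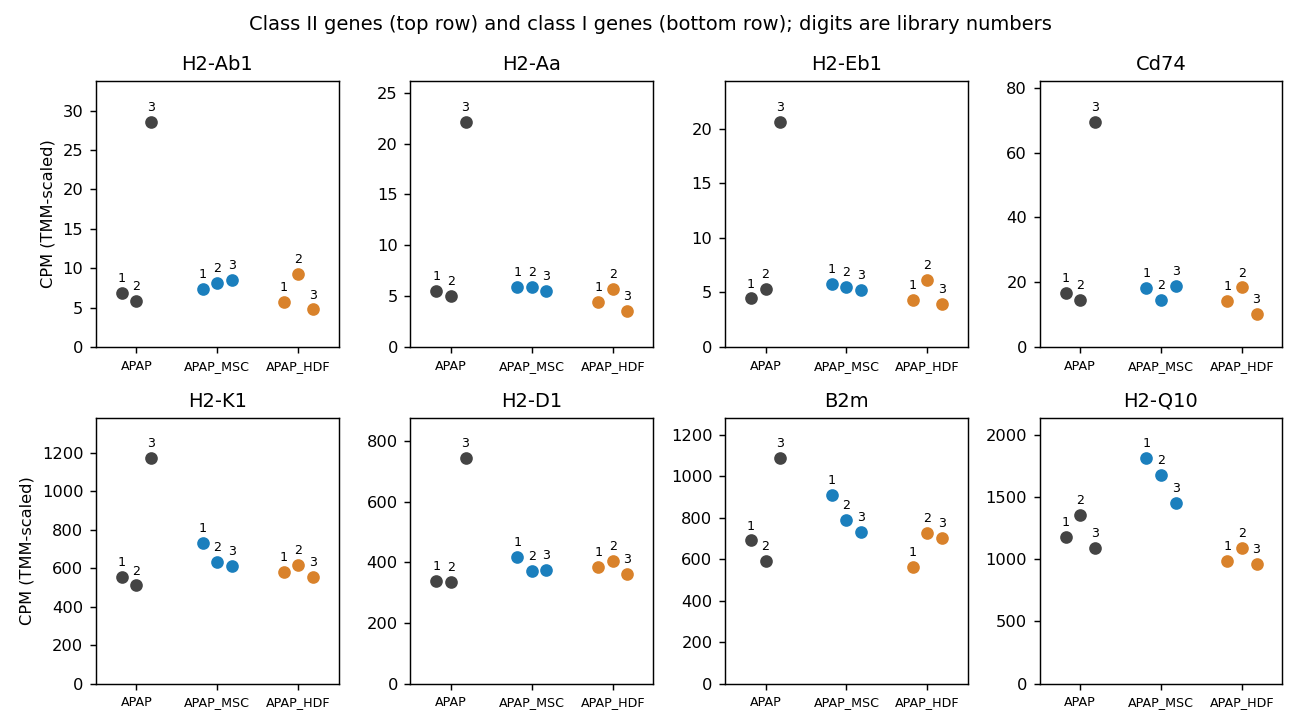
CPM (TMM-scaled, linear axis from 0) of 4 class II genes (top) and 4 class I genes (bottom), 1 point per library, with library numbers beside the points. APAP library 3 is alone at the top for H2-Ab1, H2-Aa, H2-Eb1, Cd74, H2-K1, H2-D1 and B2m, while for H2-Q10 the 3 APAP_MSC libraries are highest.

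Class I was far more abundant than class II, and its classical heavy chains H2-K1 and H2-D1 were also raised in APAP library 3, by less. Per kilobase of exon (GENCODE M21, which is not the authors' annotation), the mean level over the 9 libraries was 878 CPM per kb for B2m, 296 for H2-Q10, 225 for H2-K1 and 161 for H2-D1. On the same scale Cd1d1 had 58.8, H2-T23 34.7, Cd74 12.9, H2-Ab1 3.68, H2-Eb1 3.50 and H2-Aa 1.86 CPM per kb. H2-Q10, a class I gene whose product is secreted by liver, had the highest mean of the heavy chains on this scale and the highest value in 8 of the 9 libraries. In APAP library 3 it had 251 CPM per kb, below H2-K1 with 398 and H2-D1 with 288.

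H2-K1 had 553, 510.1 and 1170.2 CPM in APAP, 730.2, 634 and 612 CPM in APAP_MSC, and 579.8, 618 and 553 CPM in APAP_HDF. H2-D1 had 339, 335 and 743 CPM in APAP, 418, 373 and 374 CPM in APAP_MSC, and 384, 404 and 363 CPM in APAP_HDF. For both genes APAP library 3 was above the mean of the other APAP libraries, 2.202-fold for H2-K1 and 2.203-fold for H2-D1, and APAP libraries 1 and 2 were the lowest of all 9. B2m, the shared light chain, had 691, 593 and 1088 CPM in APAP, 909.9, 790.4 and 734 CPM in APAP_MSC, and 563, 726 and 704 CPM in APAP_HDF. Its fold in APAP library 3 was 1.69. H2-D1 kept 57.2 to 66.2 counts per 100 of H2-K1, with 63.5 in APAP library 3.

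H2-Q10 behaved differently from the classical chains. It had 1176, 1357 and 1092 CPM in APAP, 1811, 1679.5 and 1452 CPM in APAP_MSC, and 984, 1089 and 962 CPM in APAP_HDF. APAP library 3 was not high here, the 3 APAP_MSC libraries were the top 3 of the 9, and the APAP_HDF libraries were below every APAP library. H2-Q1, a non-classical gene of the same Q region, had 17.6, 17.01 and 19.1 CPM in APAP, 21.04, 21.3 and 20.7 CPM in APAP_MSC, and 11.7, 14.3 and 11.3 CPM in APAP_HDF. The 3 groups did not overlap in H2-Q1, with APAP_MSC highest, APAP between and APAP_HDF lowest, and in H2-Q10 the groups stood in the same order without overlap. H2-Q10 made up 50.1, 55.2 and 31.8 in APAP, 54.9, 55.7 and 53.4 in APAP_MSC, and 44.3, 45.1 and 44.7 in APAP_HDF percent of all class I heavy chain counts. The low share in APAP library 3 went with the raised classical chains there, and without that library the APAP shares lay in or near the APAP_MSC range, above those of APAP_HDF.

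Among the remaining class I heavy chains, 9 were highest in APAP library 3. H2-Q4, H2-Q5, H2-Q6, H2-Q7, H2-T23, H2-T22, H2-T10, H2-T24 and H2-M6-ps had folds over the other APAP libraries from 1.18 (H2-M6-ps) to 2.42 (H2-Q5). H2-T23, which encodes Qa-1, a ligand of inhibitory natural killer receptors, ranged from 72.1 to 133.6 CPM. H2-K2 had 2.92, 3.099 and 6.25 CPM in APAP, 7.81, 7.01 and 4.86 CPM in APAP_MSC, and 6.36, 4.01 and 5.94 CPM in APAP_HDF. Here APAP libraries 1 and 2 were the lowest of all, and APAP library 3 lay among the cell-treated libraries. H2-Q2 ran the other way, with 4.49, 3.62 and 1.42 CPM in APAP, 0.683, 1.66 and 2.03 CPM in APAP_MSC, and 1.21, 1.37 and 1.85 CPM in APAP_HDF. Its 2 highest values were in APAP libraries 1 and 2. H2-M3, which presents formylated peptides, and H2-Bl and H2-T-ps stayed under 6 CPM with overlapping groups.

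The genes that load and control class I had folds of 1.20 (Erap1) to 2.18 (Tap1) in APAP library 3 over the other APAP libraries. Tap1, a subunit of the peptide transporter, had 24.2, 20.3 and 48.5 CPM in APAP, 29.9, 29.4 and 22.5 CPM in APAP_MSC, and 34.4, 20.3 and 19.2 CPM in APAP_HDF. Tap2, its partner, had 17.2, 12.6 and 20.2 CPM in APAP, 19.9, 18.4 and 17.4 CPM in APAP_MSC, and 17.6, 13.1 and 10.96 CPM in APAP_HDF. The third APAP library was highest for both, but only narrowly for Tap2. Tapbp, the tapasin that bridges transporter and heavy chain, had 56.5, 53.2 and 93.5 CPM in APAP, 76.6, 80.5 and 73.00 CPM in APAP_MSC, and 61.2, 63.8 and 57.5 CPM in APAP_HDF. Outside APAP library 3, every APAP_MSC library exceeded every other library in Tapbp. Erap1, which trims peptides in the endoplasmic reticulum, had 64.5, 55.2 and 72.04 CPM in APAP, 63.9, 67.7 and 72.9 CPM in APAP_MSC, and 57.8, 57.7 and 59.6 CPM in APAP_HDF. Nlrc5, the class I transactivator, had 29.1, 21.1 and 44.2 CPM in APAP, 26.3, 25.2 and 23.7 CPM in APAP_MSC, and 27.2, 22.9 and 22.04 CPM in APAP_HDF. Erap1 was the loading gene that was not highest in APAP library 3, and Nlrc5 there was 1.76-fold over the other APAP libraries.

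The co-stimulation genes were low in every library. Cd80 had 0.433, 0.355 and 0.905 CPM in APAP, 0.646, 0.264 and 0.441 CPM in APAP_MSC, and 0.236, 0.341 and 0.2898 CPM in APAP_HDF. Cd86 had 1.55, 1.72 and 2.73 CPM in APAP, 2.03, 1.21 and 0.881 CPM in APAP_MSC, and 0.9597, 1.87 and 1.304 CPM in APAP_HDF. Both encode ligands of CD28 and were highest in APAP library 3. Cd40, the receptor for CD40 ligand, had 0.361, 0.411 and 0.558 CPM in APAP, 0.443, 0.623 and 0.194 CPM in APAP_MSC, and 0.205, 0.195 and 0.109 CPM in APAP_HDF, with 6 to 37 raw counts per library. Its highest value was in APAP_MSC library 2, and the APAP_HDF libraries lay below every APAP library. Cd1d1, which presents lipids to natural killer T cells, had 157, 146 and 159 CPM in APAP, 155, 159 and 159 CPM in APAP_MSC, and 135, 144 and 145 CPM in APAP_HDF. All 9 libraries lay within 135 to 159.5 CPM, and APAP library 3 was not the highest. H2-Ke6, the non-MHC gene, had 0.0881 to 0.299 CPM.

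Summed by class within each library, the 7 class II chains came to 19.97, 19.3 and 79.4 in APAP, 22.7, 22.5 and 22.9 in APAP_MSC, and 17.2, 24.5 and 14.00 in APAP_HDF CPM. The 18 class I heavy chains came to 2349, 2459.6 and 3429.8 in APAP, 3299, 3015 and 2722 in APAP_MSC, and 2221, 2414 and 2153 in APAP_HDF CPM. Per 100 class I counts there were therefore 0.8499, 0.784 and 2.31 in APAP, 0.688, 0.746 and 0.842 in APAP_MSC, and 0.773, 1.02 and 0.6503 in APAP_HDF class II counts. APAP library 3 had 2.31, and the other 8 libraries 0.650 to 1.02 with all 3 groups overlapping. Against H2-K1 and H2-D1 alone the class II ratio was 4.15 per 100 in APAP library 3 and 1.53 to 2.40 in the others. By group the class II sum was 39.5 ± 34.5 CPM (SD, n = 3) in APAP, 22.7 ± 0.207 CPM in APAP_MSC and 18.6 ± 5.39 CPM in APAP_HDF. The class I sum was 2746 ± 595 CPM in APAP, 3012 ± 289 CPM in APAP_MSC and 2263 ± 136 CPM in APAP_HDF.

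The first comparison, APAP_MSC against APAP, asks how these genes stood when MSC had been given after the injury. None of the 38 members passed the test (edgeR, adjusted p under 0.05), where 6.19% of all genes did, 2.68% higher and 3.51% lower. At an unadjusted p under 0.05 there were 3 members against 22.6% of genes. DESeq2 called 1 member, H2-Q10, where it called 10.9% of genes, and limma-voom called none. The libraries of both groups did not overlap in 4 of 38 members, H2-Q1, H2-Q10, H2-M6-ps and H2-DMb1, against 28.5% of genes. The median log2 fold change was -0.17 over all members, -0.14 over class I heavy chains and -0.71 over class II chains, against -0.01 over all genes.

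H2-Q10 had 1650 ± 181 CPM in APAP_MSC and 1208 ± 135 CPM in APAP, just short of the threshold (log2 fold change 0.45 ± 0.13 SE, adjusted p = 0.0695). For the class II genes the fitted differences were large but so was their error. H2-Aa had a log2 fold change of -0.92 ± 0.52 SE and an adjusted p of 0.348. For Cd74 it was -0.97 ± 0.55 SE (adjusted p = 0.346) and for H2-Ab1 -0.78 ± 0.56 SE (adjusted p = 0.471). Leaving out APAP library 3, these became 0.14 ± 0.21 SE, adjusted p = 0.755 for H2-Aa, 0.13 ± 0.21 SE, adjusted p = 0.775 for Cd74, and 0.34 ± 0.25 SE, adjusted p = 0.486 for H2-Ab1. The sign of each thus turned when 1 library was left out.

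Without APAP library 3, 29 of 38 members were higher in APAP_MSC and 9 lower, where 50.7% of all genes were higher. The medians were 0.19 over all members, 0.19 over class I heavy chains and 0.17 over class II chains, against 0.01 over all genes. Since that library was picked because these members were high in it, an upward shift was built into this fit. In that fit 2 members were called, both higher, where 4.24% of genes were called and 1.76% called higher. These were H2-K2 (1.12 ± 0.26 SE, adjusted p = 0.0406) and Tapbp (0.48 ± 0.10 SE, adjusted p = 0.0307). With all 9 libraries their values were 0.68 ± 0.31 SE (adjusted p = 0.222) and 0.18 ± 0.18 SE (adjusted p = 0.622). H2-Q10 was at 0.38 ± 0.15 SE, adjusted p = 0.168 in that fit.

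The comparison of APAP_HDF with APAP asks the same of the HDF infusion and shares the 3 APAP libraries with the one above. Again none of 38 members passed, and 0% of all genes did. At an unadjusted p under 0.05 there were 5 members, H2-Q1, H2-Q2, H2-Aa, H2-DMb1 and Cd40, against 8.29% of genes. DESeq2 called 1 member, H2-Q1, where it called 0.356% of genes, and limma-voom called none. The libraries did not overlap in 6 of 38 members, all lower in APAP_HDF, against 11.7% of genes. Those were H2-Q1, H2-Q10, H2-DMb1, Cd80, Cd40 and Cd1d1. Median log2 fold changes were -0.32 over all members, -0.25 over class I heavy chains and -1.07 over class II chains.

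The smallest p among the members was that of H2-Q1, with 12.4 ± 1.63 CPM in APAP_HDF and 17.9 ± 1.08 CPM in APAP. The fitted difference was a log2 fold change of -0.53 ± 0.11 SE and an adjusted p of 0.457. Of the class II genes, H2-Aa had a log2 fold change of -1.26 ± 0.53 SE and an adjusted p of 0.583, and H2-DMb1 a log2 fold change of -1.25 ± 0.42 SE and an adjusted p of 0.571. Cd40 had the most negative value, -1.37 ± 0.50 SE (adjusted p = 0.575). When APAP library 3 was left out no member was called, where 0.172% of genes were, and the medians were -0.06 over all members, 0.01 over class I heavy chains and -0.04 over class II chains. H2-Aa then had -0.22 ± 0.21 SE, adjusted p = 0.704, H2-Ab1 0.04 ± 0.25 SE, adjusted p = 0.963, and Cd74 -0.14 ± 0.21 SE, adjusted p = 0.83. H2-Q1 then had -0.49 ± 0.13 SE, adjusted p = 0.176, H2-DMb1 -0.64 ± 0.35 SE, adjusted p = 0.457, and Cd40 -1.18 ± 0.57 SE, adjusted p = 0.409.

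**Figure D3:**
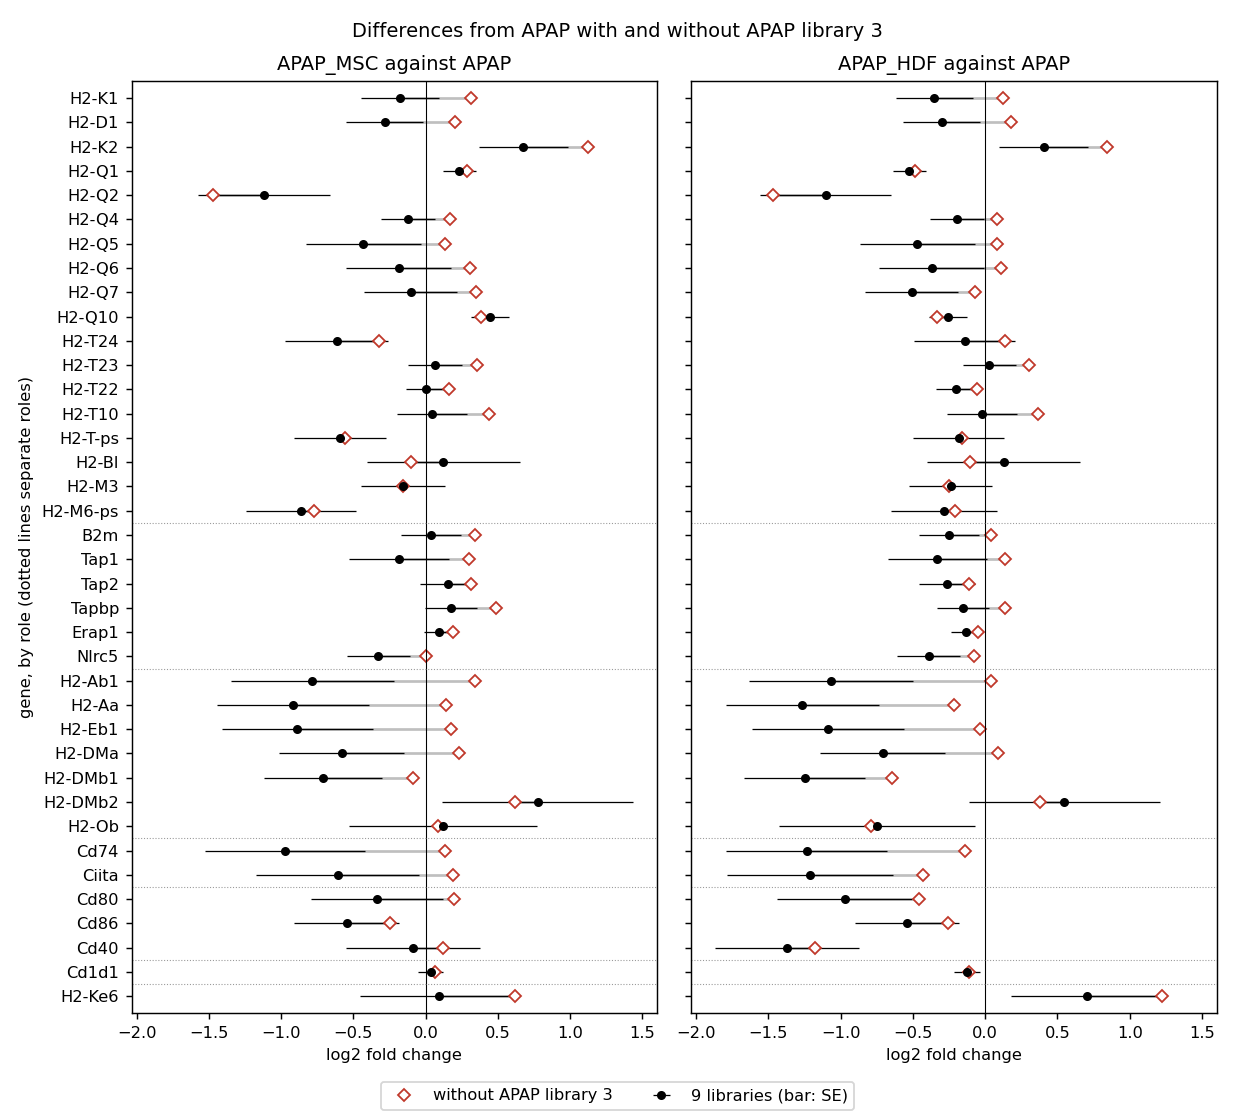
Log2 fold changes of the 38 genes in APAP_MSC (left) and APAP_HDF (right) against the shared APAP group. Black points and bars are the fit to 9 libraries and its SE, and red diamonds the fit without APAP library 3, joined by grey lines. The longest lines are those of H2-Ab1, H2-Aa, H2-Eb1 and Cd74, whose diamonds lie nearer 0, while H2-Q1 and H2-Q10 hardly move.

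The median class II log2 fold change minus the median class I value put both cell infusions below APAP, at -0.57 in APAP_MSC and -0.82 in APAP_HDF. The differences were -0.01 and -0.05 without APAP library 3. Between APAP_MSC and APAP_HDF, which do not involve that library directly, it was 0.22. Another measure was each library's mean class II minus mean class I log2 level, with every gene centred on its mean over the 9 libraries. It was 0.19 ± 0.47 (SD, n = 3) in APAP, 0.06 ± 0.23 in APAP_MSC and -0.25 ± 0.50 in APAP_HDF. Pooled over groups, its SD between libraries of a group was 0.418. That SD belongs to single libraries and not to the medians above, so it cannot rank them.

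With the gene filter used for testing, the direct comparison of both cell infusions gave the only members that edgeR called with all 9 libraries. With no filter, edgeR also called H2-Q10 in APAP_MSC against APAP (log2 fold change 0.46, adjusted p = 0.0362). In APAP_MSC against APAP_HDF 2 of 38 members passed, both higher, where 8.79% of all genes passed, 4.78% higher and 4% lower. H2-Q1 had 21.0 ± 0.309 CPM in APAP_MSC and 12.4 ± 1.63 CPM in APAP_HDF, a 1.69-fold difference (log2 fold change 0.76 ± 0.11 SE, adjusted p = 0.00398), higher in 3 of 3 libraries. H2-Q10 had 1650 ± 181 CPM against 1012 ± 68.0 CPM, a 1.63-fold difference (log2 fold change 0.70 ± 0.13 SE, adjusted p = 0.0102), also without overlap. Without APAP library 3, which still sets part of the estimated spread, they had 0.77 ± 0.11 SE, adjusted p = 0.00327 and 0.72 ± 0.13 SE, adjusted p = 0.00901. H2-Q10 missed the threshold when APAP_MSC library 2 was left out (0.70 ± 0.16 SE, adjusted p = 0.0563). H2-Q10 was far more abundant than H2-Q1, and whether H2-Q1 shares reads with it was not tested.

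Of the 38 members, 31 had a positive log2 fold change and 7 a negative one, where 47.7% of all genes were positive. The members had a median of 0.19 against -0.02 over all genes. At an unadjusted p under 0.05 there were 3 members, against 25.5% of genes. The libraries did not overlap in 9 of 38, against 33.2% of genes, so both shares were below those of all genes. Those were H2-Q1, H2-Q10, H2-T10, B2m, Tapbp, Erap1, H2-DMb1 and Cd1d1, higher in APAP_MSC, and H2-Ke6, lower. All 6 loading and control genes were positive, with a median of 0.26. Tapbp had a log2 fold change of 0.33 ± 0.18 SE and an adjusted p of 0.277. Without APAP library 3 it was called at 0.35 ± 0.09 SE, adjusted p = 0.0366, which made 3 of 38 members called, where 9.6% of genes were and 5.39% called higher. Class II chains were positive in 7 of 7, with a median of 0.28. None was called, with adjusted p-values from 0.463 to 0.888. Within APAP_HDF all 7 were lowest in library 3, so they are not 7 separate signs of a difference. The class II sum was 17.2, 24.5 and 14.00 CPM in APAP_HDF, overlapping the 22.7, 22.5 and 22.9 CPM of APAP_MSC. Cd40 had the largest value, a log2 fold change of 1.29 ± 0.50 SE and an adjusted p of 0.133.

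**Figure D4:**
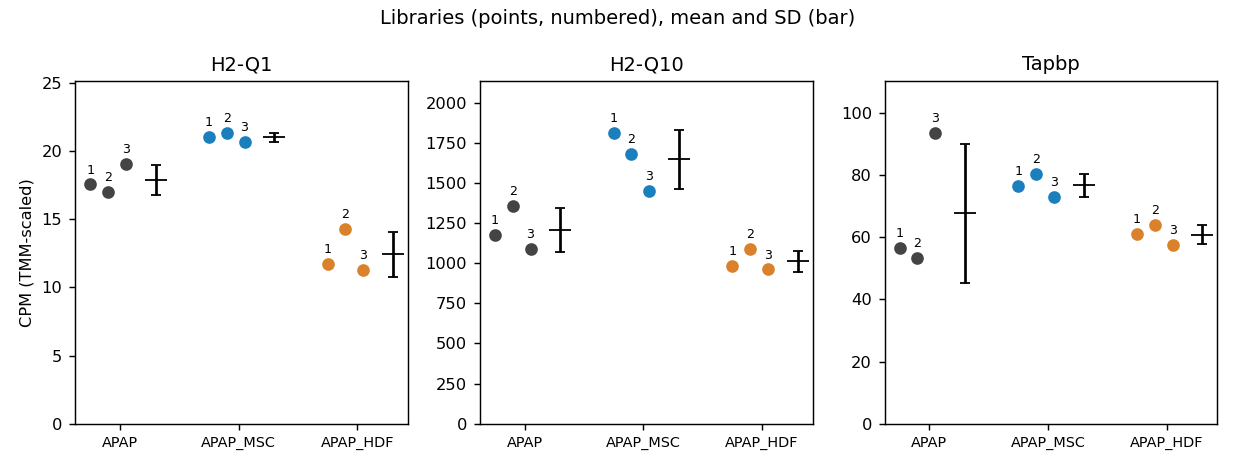
CPM (TMM-scaled, linear axis from 0) of H2-Q1, H2-Q10 and Tapbp in each library (points, numbered) with the mean and SD of each group of 3 beside them. For H2-Q1 and H2-Q10 the order APAP_MSC, APAP, APAP_HDF holds without overlap, and for Tapbp APAP library 3 alone lies above the APAP_MSC libraries.

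The other genes of these pathways were read from lists by the same tests. The immunoproteasome and its PA28 activator cut the peptides that class I carries. Of its 6 genes, 3 were called higher in APAP_MSC than in APAP_HDF, where 4.78% of all genes were. The list median was 0.62 against -0.02 over all genes. Psme2, a PA28 subunit, had 33.7, 32.9 and 40.6 CPM in APAP, 46.7, 49.2 and 42.6 CPM in APAP_MSC, and 28.8, 33.3 and 28.8 CPM in APAP_HDF (log2 fold change 0.61 ± 0.11 SE, adjusted p = 0.00939). Psme1, the other subunit, had 64.5, 55.1 and 78.3 CPM in APAP, 81.00, 76.6 and 74.9 CPM in APAP_MSC, and 47.1, 54.3 and 49.3 CPM in APAP_HDF (log2 fold change 0.63 ± 0.12 SE, adjusted p = 0.0125). In both, every APAP_MSC library was above every APAP_HDF library. Psmb10, a catalytic subunit, had a log2 fold change of 0.71 ± 0.16 SE and an adjusted p of 0.0226. None of the 6 passed against APAP, where Psme2 had the smallest p (adjusted p = 0.073 for APAP_MSC) and Psme1 for APAP_HDF (adjusted p = 0.535). Psme2 passed in APAP_MSC against APAP when APAP library 3 was left out (adjusted p = 0.0423).

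Of 10 further genes of class I folding and loading, Tapbpl, a tapasin-related editor, was higher in APAP_MSC than in APAP_HDF (log2 fold change 0.50 ± 0.14 SE, adjusted p = 0.0438). Lnpep, an aminopeptidase of cross-presentation, was lower (log2 fold change -0.51 ± 0.14 SE, adjusted p = 0.0479). None passed in APAP_MSC against APAP, where Lnpep had the smallest p (adjusted p = 0.0539), or in APAP_HDF against APAP (Npepps, adjusted p = 0.579). Lnpep was called lower in APAP_MSC against APAP, at the very edge of the threshold, when APAP library 3 was left out. Among 7 tested class II processing genes, Lgmn, the endosomal protease legumain, had 110.3, 129 and 136 CPM in APAP, 74.2, 68.7 and 63.3 CPM in APAP_MSC, and 117, 122 and 112 CPM in APAP_HDF. It was lower in all 3 APAP_MSC libraries than in the other 6, both against APAP (log2 fold change -0.86 ± 0.11 SE, adjusted p = 0.0035) and against APAP_HDF (log2 fold change -0.76 ± 0.11 SE, adjusted p = 0.00276). With APAP library 3 left out it was also called against APAP (-0.80 ± 0.11 SE, adjusted p = 0.00926). No other gene of that list passed in any comparison, and for APAP_HDF against APAP the smallest p was that of Ctss (adjusted p = 0.582). None of the 8 genes of class II transcription, Rfx5, Rfxap, Rfxank, Nfya, Nfyb, Nfyc, Creb1 and Zxdc, passed in any comparison. The smallest adjusted p there was 0.0916 (Nfyb, APAP_MSC against APAP), with 0.583 for Rfxap in APAP_HDF against APAP and 0.146 for Creb1 between the infusions.

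The genes induced by interferon gamma were the list most clearly raised in APAP library 3. All 16 were highest there, against 11% of all genes tested. Their summed level was 327, 205 and 726 CPM in APAP, 313, 330.4 and 294 CPM in APAP_MSC, and 423, 302 and 395 CPM in APAP_HDF. Cxcl9, a chemokine for activated T cells, had 1.19, 1.03 and 20.4 CPM in APAP, 2.27, 1.44 and 0.775 CPM in APAP_MSC, and 0.787, 1.33 and 1.03 CPM in APAP_HDF. Tgtp1, an interferon-inducible GTPase, had 2.18, 1.23 and 31.9 CPM in APAP, 2.66, 2.32 and 2.01 CPM in APAP_MSC, and 2.55, 1.84 and 1.16 CPM in APAP_HDF. In both, that 1 library was higher than the other 8 added together. None of the 16 passed in any comparison, with medians of -0.72 in APAP_MSC against APAP, -0.75 in APAP_HDF against APAP and 0.05 between the infusions, and with Gbp9 (adjusted p = 0.0968 and 0.575) and Gbp6 (adjusted p = 0.343) as the genes of smallest p. Without APAP library 3 the medians were 0.20, 0.22 and 0.06, and Gbp6 was called higher in APAP_MSC against APAP (adjusted p = 0.0231) and against APAP_HDF (adjusted p = 0.0352). Ifng itself had 0 counts in 8 libraries and 0.0302 CPM in APAP library 3, which is under the limit that a count of 0 allows. On the receptor and signalling list, Jak1 was lower in APAP_MSC than in APAP_HDF (log2 fold change -0.40 ± 0.11 SE, adjusted p = 0.0419). None of the 11 tested passed against APAP, with Jak1 (adjusted p = 0.0618) and Irf8 (adjusted p = 0.602) closest, and none did so when APAP library 3 was left out. In that fit Jak1 just missed the threshold between the infusions (-0.39 ± 0.11 SE, adjusted p = 0.0514), and Ifngr1, a chain of the interferon gamma receptor, was called lower in APAP_MSC than in APAP_HDF (-0.53 ± 0.11 SE, adjusted p = 0.0149, against -0.54 ± 0.17 SE, adjusted p = 0.0722 with 9 libraries).

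Of 8 other tested co-stimulation genes none passed in any comparison with or without APAP library 3, with Cd83 closest against APAP (adjusted p = 0.16 and 0.525) and Vtcn1 between the infusions (adjusted p = 0.366). Of 8 MHC-like genes, Procr, the endothelial protein C receptor, had 7.304, 6.53 and 9.37 CPM in APAP, 2.07, 1.57 and 2.22 CPM in APAP_MSC, and 10.8, 7.65 and 9.24 CPM in APAP_HDF. It was lower in APAP_MSC than in APAP (log2 fold change -1.99 and adjusted p = 0.00259, or -1.82 ± 0.21 SE, adjusted p = 0.00474 without APAP library 3) and than in APAP_HDF (log2 fold change -2.24 ± 0.21 SE, adjusted p = 6.37e-04). Raet1e, a ligand of the NKG2D receptor, and Hfe, which regulates iron uptake, were higher in APAP_MSC than in APAP_HDF. Raet1e had a log2 fold change of 1.65 ± 0.42 SE and an adjusted p of 0.0362, and Hfe a log2 fold change of 0.43 ± 0.11 SE and an adjusted p of 0.0374. Fcgrt, the neonatal Fc receptor, was called higher in APAP_MSC than in APAP when APAP library 3 was left out (0.65 ± 0.15 SE, adjusted p = 0.0402) and not with 9 libraries (0.47 ± 0.16 SE, adjusted p = 0.109). None of the 8 passed in APAP_HDF against APAP (Raet1e, adjusted p = 0.575).

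Markers of class II-bearing cells moved with APAP library 3 in part. Of the pan-leukocyte genes 5 of 5 were highest there, of Kupffer cell genes 9 of 10, of monocyte and macrophage genes 7 of 12, and of conventional dendritic cell genes 4 of 7 tested. Over all genes tested the share was 11%. The summed pan-leukocyte level was 37.5, 37.03 and 62.9 CPM in APAP, 29.6, 22.2 and 21.8 CPM in APAP_MSC, and 36.4, 32.7 and 20.4 CPM in APAP_HDF. The Kupffer sum was 181, 285 and 406 CPM in APAP, 237, 166 and 145 CPM in APAP_MSC, and 176, 215 and 101 CPM in APAP_HDF. In APAP_HDF it was highest in library 2 and lowest in library 3, as H2-Ab1, H2-Aa, H2-Eb1 and the class II sum were. In APAP_MSC the Kupffer sum fell from library 1 to 3, whereas the class II sum was 22.7, 22.5 and 22.9 CPM. From APAP library 1 to 2 the Kupffer sum rose, whereas the class II sum was 19.97 and 19.3 CPM. The dendritic sum was 9.07 to 13.2 CPM in APAP, 7.82 to 9.74 CPM in APAP_MSC and 9.24 to 11.3 CPM in APAP_HDF, with Cd209a at 0 counts in 1 library. B cell genes did not move with it. None of 8 tested was highest in APAP library 3, their sum was 4.03 to 7.38 CPM in APAP, 2.92 to 6.55 CPM in APAP_MSC and 2.92 to 4.94 CPM in APAP_HDF, and Cd79b, Ms4a1 and Fcmr were at 0 in at least 1 library. T and natural killer cell genes were scarce, with 7 of 12 at 0 in at least 1 library and a sum of 1.57, 1.997 and 3.88 CPM in APAP, 2.399, 1.62 and 1.27 CPM in APAP_MSC, and 1.45, 1.999 and 0.9598 CPM in APAP_HDF. Neither hepatocyte nor sinusoidal endothelial markers were highest in APAP library 3. The part of these cell types in the class II levels was not tested.

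**Figure D5:**
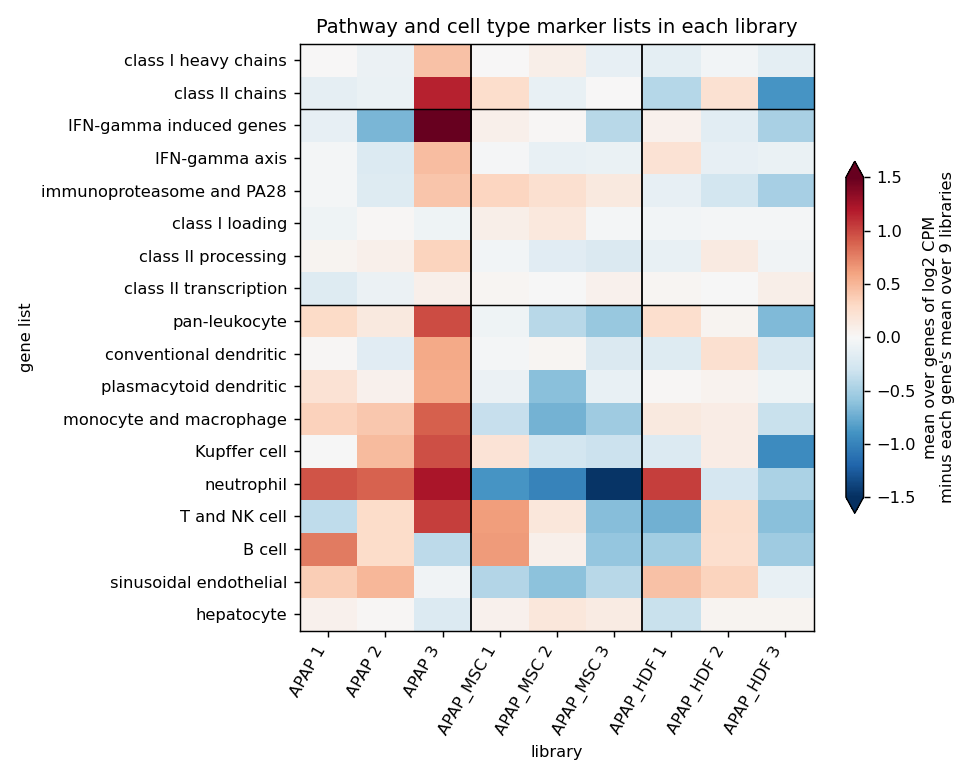
Mean over the tested genes of each list of log2 CPM minus the gene's mean over 9 libraries, for the class I and class II genes (top), pathway lists (middle) and cell type marker lists (bottom). The interferon gamma induced list is the darkest red in APAP library 3, the class II chains and several leukocyte lists are red there too, and the B cell list is pale blue.

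Between groups, the same markers differed as follows. Over all genes, 2.68% were called higher and 3.51% lower in APAP_MSC than in APAP, and 4.78% and 4% than in APAP_HDF. Without APAP library 3 the shares called either way were 4.24% against APAP and 9.6% against APAP_HDF. In APAP_MSC against APAP, 5 of 12 monocyte and macrophage genes were lower, among them Cd68 (log2 fold change -1.25 ± 0.16 SE, adjusted p = 0.00433), Trem2 (log2 fold change -1.48 ± 0.24 SE, adjusted p = 0.0101) and Ly6c2 (log2 fold change -1.90 ± 0.45 SE, adjusted p = 0.0346). Of these 5, 2 were called without APAP library 3, Cd68 and Trem2. Cd163 of the Kupffer list (log2 fold change -1.30 ± 0.30 SE, adjusted p = 0.0346) and Coro1a of the pan-leukocyte list (log2 fold change -0.95 ± 0.24 SE, adjusted p = 0.0388) were also lower with all 9 libraries, and neither was called without APAP library 3. In APAP_MSC against APAP_HDF, Cd68 was lower (log2 fold change -1.30 ± 0.16 SE, adjusted p = 0.00177), and no gene passed of the Kupffer (smallest p Timd4, adjusted p = 0.288), pan-leukocyte (Coro1a, 0.121), conventional dendritic (Clec9a, 0.121), B cell (Cr2, 0.22) or T and natural killer cell lists (Cd4, 0.192). Bst2, listed for plasmacytoid dendritic cells but also induced by interferon in other cells, was higher in APAP_MSC than in APAP (adjusted p = 0.0301, or 0.00909 without APAP library 3) and than in APAP_HDF (adjusted p = 0.00991). In APAP_MSC against APAP no gene passed of the conventional dendritic (Clec9a, adjusted p = 0.121), B cell (Cd22, 0.224), T and natural killer cell (Cd3g, 0.395), hepatocyte (Ttr, 0.0727) or cholangiocyte lists (Krt19, 0.0969). In APAP_HDF against APAP no marker passed, with or without APAP library 3. With 9 libraries the genes of smallest p in their lists were Col3a1 (stellate, adjusted p = 0.457), Spp1 (cholangiocyte, 0.525), S100a8 (neutrophil, 0.535), Cd163 (Kupffer, 0.571), Laptm5 (pan-leukocyte, 0.575), Cd4 (T and natural killer cell, 0.575), Cps1 (hepatocyte, 0.583), Ighm (B cell, 0.6), Stab1 (sinusoidal endothelial, 0.619), Runx2 (plasmacytoid dendritic, 0.655) and Xcr1 (conventional dendritic, 0.684). Of 10 sinusoidal endothelial genes, 3 were lower in APAP_MSC than in APAP (Oit3, Lyve1 and Stab1), or 7 without APAP library 3, and 3 were lower than in APAP_HDF (Oit3, Lyve1 and Fcgr2b), or 5 without it. Of 6 tested neutrophil genes, 4 were lower in APAP_MSC than in APAP, among them S100a8, S100a9 and Mmp8, or 1 without APAP library 3 (S100a8). Lower than in APAP_HDF were 2 (Mmp8 and Retnlg), or 1 without APAP library 3 (Mmp8). Outside the leukocyte lists, Dcn of the stellate list was lower in APAP_MSC than in APAP (adjusted p = 0.0217, or 0.0271 without APAP library 3). Cps1 of the hepatocyte list, Col3a1 of the stellate list and 4 of 6 cholangiocyte genes, among them Cftr, Epcam and Krt19, were higher in APAP_MSC than in APAP_HDF. Sox9 of the cholangiocyte list went the other way (-0.63 ± 0.19 SE, adjusted p = 0.063). Without APAP library 3 Sox9 was called lower in APAP_MSC than in APAP_HDF (-0.62 ± 0.16 SE, adjusted p = 0.0352). So was Ly6d of the plasmacytoid dendritic list (-0.68 ± 0.16 SE, adjusted p = 0.0282, against 0.446 with 9 libraries).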

How the data were processed

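Poly(A) RNA of mouse liver was sequenced in 9 libraries of 3 groups. Whole liver was extracted with TRIZOL and libraries were made with a Tecan mRNA kit, per the labels' protocols. HISAT2, Subread and DESeq2 are named in the submitters' processing notes, with mm39 and GRCm39 as builds and no versions. Of 2 deposited tables, the one analysed holds raw read counts as whole numbers. The other holds a scaled signal that the authors deposited, equal to those counts over median-of-ratios size factors within 0.07%, and was used for that check only. Column headers give the group but no replicate number, so libraries are numbered in column order within a group. No pair of libraries held identical values, and the median chi-square between libraries of a group was 3.18 to 9.10.

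Counts of all genes were fitted with edgeR 4.0.16 in R 4.3.3 (TMM, filterByExpr, robust quasi-likelihood test, group as the only term, 9 libraries). Of 28956 genes, 17582 were tested, and genes were called at a two-sided Benjamini-Hochberg adjusted p under 0.05 over all of them. Levels are CPM with TMM-scaled sizes. The SE of a log2 fold change was derived from the test, as its absolute value over the square root of the quasi-likelihood F statistic. Alternatives were RLE factors, no filter, a filter of 10 counts in 3 libraries, DESeq2 1.42.0, limma-voom 3.58.1, the 2 compared groups alone, and leaving out each library. The fit was tested on simulated data with known changes. The members and lists were chosen with earlier results of these data known. Every member past the count minimum is described. From the other lists the called genes of smallest p are named, up to 3 per list and comparison, or the gene of smallest p where none was called, except 1 that is not reported here. Fcgrt, Ifngr1, Sox9 and Ly6d, called only without APAP library 3, were named after their values were seen, as were Cxcl9 and Tgtp1. Of 184 list genes, 181 were matched in the table and 165 tested. The classes were compared without a test.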

Additional observations from a re-analysis of the deposited data

How the results depend on the processing

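In APAP_MSC against APAP, the count of 0 members called became 1 (H2-Q10) with no filter (log2 fold change 0.46, adjusted p = 0.0362), 1 (H2-Q10) with DESeq2 (0.45, adjusted p = 0.0115), and 0 to 2 when single libraries were left out. The count of 2 came without APAP library 3 (H2-K2 and Tapbp) and the count of 1 without APAP_HDF library 1 (H2-Q10, adjusted p = 0.0461). In APAP_HDF against APAP it became 1 with DESeq2 (H2-Q1, -0.53, adjusted p = 0.0349) and stayed 0 in every other alternative. In APAP_MSC against APAP_HDF the count was 1 to 3 when single libraries were left out, with 1 (H2-Q1) without APAP_MSC library 2 and 3 without APAP library 3, and 3 with the compared groups alone (Tapbp, adjusted p = 0.0376). H2-Q1 was called there in 15 of 15 alternatives (log2 fold change 0.71 to 0.87, adjusted p 9.95e-07 to 0.0267) and H2-Q10 in 14 of 15 (0.63 to 0.80, 8.18e-06 to 0.0563). No called value changed sign, and 99 of 1710 member values, uncalled in both fits, had the other sign.

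The class II minus class I median of -0.57 in APAP_MSC against APAP ran from -0.81 to -0.0124 when single libraries were left out, and was -0.13 by the mean over members of log2 CPM. The -0.82 of APAP_HDF against APAP ran from -1.14 to -0.0494 and was -0.44 by that mean, and the 0.22 between the infusions ran from 0.06 to 0.51 and was 0.31. In both comparisons with APAP the value nearest 0 came without APAP library 3, and between the infusions the 0.06 and 0.51 came without APAP_HDF libraries 3 and 2.

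Over all genes, 1088 calls in APAP_MSC against APAP became 1938 with DESeq2 and 87 to 1676 when single libraries were left out, with the fewest without APAP_MSC library 2. The 1545 of APAP_MSC against APAP_HDF became 2349 and 324 to 1730, and the 0 of APAP_HDF against APAP became 69, 10 with no filter, and 0 to 31. No paired analysis was possible because the columns carry no replicate numbers. Depth limits the members of few reads, such as Cd40 with 6 to 37 raw counts per library.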
